A study of Mus musculus with 22 samples.

Results

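Esophageal epithelium of mice that carried 4NQO-induced esophageal squamous cell carcinoma (ESCC) was compared with that of control mice. The comparison took every library whose title names 4NQO and every old or young control library, which made 18 of the 22 libraries of the series, from 9 mice, with 3000 of its 4500 deposited cells. All mice were C57BL6. The 3 ESCC mice (8M, 17F and 17M, 8-10 months old) had received 4-nitroquinoline 1-oxide (4NQO, a mutagen that gives rise to squamous tumors of the mouse esophagus) for 16 weeks in the water they drank (100 µg/ml, with 2% propylene glycol as solvent), followed by 8 weeks without it. The 6 control mice were untreated wild type animals, of which 3 were old (18-20 months, mice 3, 4 and 5) and 3 were young (3-4 months, mice 1, 2 and 6), so no control had the age of the ESCC mice and none had received propylene glycol. The epithelium was peeled from the muscle, dissociated with enzymes and sequenced by inDrop. In this method cells are caught in droplets, reads are assigned to cells by a barcode, and molecules are counted by unique molecular identifiers (UMIs). Peeled epithelium of a tumor-bearing esophagus can hold tumor as well as adjacent epithelium, and the labels do not separate them.

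The esophagus is lined by a stratified squamous epithelium. Basal cells on the basement membrane divide and express Krt5, Krt14 and Krt15, and their progeny exit the cycle, switch to Krt4 and Krt13, and then assemble a cornified envelope before they are shed. In wounds and in squamous tumors, keratinocytes take up Krt6, Krt16 and Krt17, and squamous carcinomas often carry an active NRF2 pathway, in which the factor NRF2 (Nfe2l2) is released from its inhibitor Keap1 and binds antioxidant response elements of glutathione and thioredoxin genes.

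Counts were summed per mouse over its 2 libraries, and the mouse was the replicate. Controls held 71 to 409 cells and 112412 to 427752 UMIs per mouse, and ESCC mice held 326 to 661 cells and 1293418 to 2118140 UMIs. Per cell, the median was 990 UMIs in controls and 3099.5 in ESCC, so depth, age and treatment differed together and cannot be told apart. The 2 libraries of a mouse shared 4 to 36 cell barcodes in controls and 27 to 52 in ESCC, whereas libraries of different mice shared at most 2. Cells with the same barcode resembled each other (median correlation over genes of 0.697 to 0.884 per mouse) more than other cells of the 2 libraries did (0.337 to 0.543), so some cells may have been counted in both libraries. Mouse 17F stood apart by Xist, the RNA of the inactive X chromosome, with 299 UMIs against 0 in every other mouse.

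Basal and differentiated keratins were present in every mouse, as the tissue label says. Cells with more Krt5 than Krtdap UMIs, a simple measure of basal character, made up 56.5% to 76.5% of the cells of a control mouse (median 59.5%) and 83.1%, 90.6% and 91.8% of those of mice 8M, 17F and 17M. In sums over cells, fewer cells of a type and less RNA per cell cannot be told apart. For many lists and genes below, values are also given within the 922 control and 1343 ESCC cells that had more Krt5 than Krtdap. The same was done within the 537 and 138 cells that had more Krtdap than Krt5. Krt5 and Krtdap themselves differed between the groups, so each kind need not hold like cells in ESCC and control. A value within a kind therefore does not settle which of the 2 holds. Where none is given, it may still differ from that over all cells. Markers of other cells were rare in both groups. The immune list held 0% to 0.00291% of the UMIs of a control mouse and 0.0113%, 0.0177% and 0.0180% of those of the ESCC mice, with Ptprc, the pan-leukocyte phosphatase CD45, at 0 UMIs in all controls and 63 in ESCC, Tyrobp at 0 and 31, and Cd3e at 0 and 7. The fibroblast list held 0.0107% to 0.0827% of the UMIs of a control mouse (median 0.0322%) and 0.0152%, 0.0109% and 0.00543% of those of the ESCC mice, and 3 of its 4 tested genes, Col3a1, Dcn and Dpt, were lower (median of the 4 -2.32). Without non-epithelial cells and cells outside limits on genes and UMIs, 0 of 2 tested were called (median -0.65). Against the young controls alone 0 of 2 were lower, and against the old controls alone 1 of 2. Out of 1750800 control and 5186964 ESCC UMIs, the endothelial list held 36 and 146, the muscle list 11 and 137, the eosinophil and mast cell list 0 and 10, and the glandular list 1 and 11.

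Of 6606 genes tested, 1123 were higher in ESCC and 1106 were lower by edgeR's quasi-likelihood test at an adjusted p of 0.05, which is 17.0% and 16.7% of the genes. In 13.3% of the genes all 3 ESCC mice lay above all 6 controls, and in 10.7% all lay below. The median log2 fold change over all genes tested was 0.0087. With scaling by total UMIs alone, the median moved to -0.14, with 821 genes higher and 1529 lower. Directions below are relative to the median under the main scaling (TMM), and no gene called there changed sign with total UMIs. The ESCC mice were also compared with each control age alone, which gave 837 genes higher and 866 lower against the 3 young mice (10.4% and 10.7% of those tested) and 810 higher and 753 lower against the 3 old mice (10.1% and 9.36%).

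Keratin genes changed in several directions. Basal Krt5 and Krt14 were higher in ESCC, Krt15 and the differentiation keratins Krt4 and Krt13 were lower, and Krt6a, Krt6b, Krt16 and Krt17 rose from low levels. Levels are given as CPM, the UMIs of a gene per 1000000 UMIs of the genes tested in that mouse, after TMM scaling. Krt5 (chr15:101707070-101712898, minus strand, GENCODE M21 on GRCm38), the type II keratin of basal cells, ranged from 4215 to 6643 CPM in controls with a median of 4851, and stood at 9131 CPM in 8M, 10374 in 17F and 12168 in 17M. All 3 ESCC mice lay above the controls (log2 fold change 1.04 ± 0.18 SE, adjusted p = 0.000273). Its type I partner Krt14 (chr11:100203162-100207548, minus strand) was at 1580.0 to 3204 CPM in controls with a median of 2507, and at 5519, 10547 and 14872 CPM in 8M, 17F and 17M. The groups did not overlap, and 8M was again the nearest to the controls (2.07 ± 0.25, adjusted p = 3.36e-06).

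Krt15 (chr11:100131758-100135928, minus strand), a type I keratin of basal cells, went the other way from Krt14 although both are basal. Its control values ran from 4277 to 6183 CPM with a median of 4660.1, against 3455 CPM in 8M, 1204 in 17F and 692 in 17M. Every ESCC mouse lay below every control (-1.49 ± 0.35, adjusted p = 0.00314), with 8M nearest to the controls. Krt4 (chr15:101918535-101924735, minus strand), the type II keratin of suprabasal cells, was at 13250.1 to 35272 CPM in controls with a median of 29622. It was at 6193, 1625 and 1675 CPM in 8M, 17F and 17M, below all controls and 8.18-fold lower in the fit (-3.03 ± 0.45, adjusted p = 3.86e-05). Its partner Krt13 ranged from 8528 to 16723 CPM in controls (median 12592) and was at 8783, 3277 and 3190.3 CPM in ESCC, so that 8M overlapped the controls (-1.31 ± 0.30, adjusted p = 0.0025). Krtdap, a secreted protein of differentiating keratinocytes, also overlapped in 8M (log2 fold change -1.11, adjusted p = 0.00482).

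**Figure D1:**
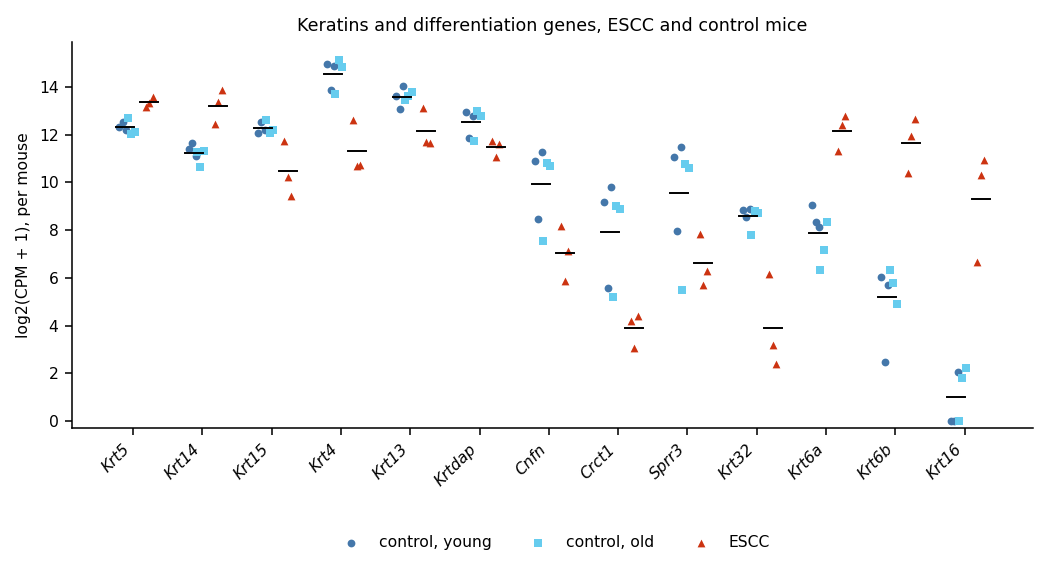
Levels of keratin and differentiation genes as log2(CPM + 1), with 1 point per mouse (circles for young controls, squares for old controls, triangles for ESCC) and a bar at the mean of each group. Krt4 lies between 13250.1 and 35272 CPM in controls and at 6193 CPM or less in the ESCC mice, while Krt6a, Krt6b and Krt16 lie above all controls in each ESCC mouse.

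The wound and stress keratins Krt6a, Krt6b, Krt16 and Krt17 were higher. Krt6a (chr15:101689910-101694307, minus strand), which keratinocytes take up at wound margins, was at 79.5 to 534 CPM in controls (median 301) and at 2567, 5404 and 7033 CPM in 8M, 17F and 17M. Its neighbor Krt6b (chr15:101676023-101680287, minus strand) ran from 4.65 to 79.5 CPM in controls (median 52.5) against 1329, 3994 and 6509 CPM. For both genes the groups did not overlap, and the log2 fold changes were 4.11 ± 0.36 (adjusted p = 5.41e-08) and 6.40 ± 0.42 (adjusted p = 7.32e-10). Krt16 (chr11:100246091-100248902, minus strand), the type I partner of Krt6, had 3 UMIs over all controls, at 0 to 3.62 CPM with a median of 1.23, and 102, 1258 and 1948 CPM in ESCC. The ratio of the group rates was 729, with a 95% counting interval of 249 to 3536 that covers counting error alone, and 8M was the lowest of the ESCC mice. Krt16 passed the filter on low counts through the ESCC mice alone, so its part in the calls of these keratins carries no weight. Krt17 was also called (3.68, adjusted p = 1.54e-05). Krt6a was also higher within cells with more Krt5 than Krtdap (3.48) and within cells with more Krtdap than Krt5 (6.28). Krt10 and Krt1, keratins of the epidermis, had log2 fold changes of 1.16 (adjusted p = 0.0564) and 1.17 and did not pass the test. Krt10 passed it in several alternatives, among them without control mouse 1 (2.02, adjusted p = 0.000302). It passed at 2.39 within cells with more Krt5 than Krtdap (adjusted p = 0.000481). Within cells with more Krtdap than Krt5 it passed at 2.42 (adjusted p = 0.000736). The epidermal keratin list, which holds both genes, had 2 of 2 tested members higher in the first kind of cell. In the second, 2 of 4 were higher and 2 lower. Against the old controls alone 2 of 3 were higher and 1 lower, and against the young controls alone 0 of 3 were higher and 1 lower. Over all cells, Krt32, Krt78 and Krt80 were lower at -4.03, -3.79 and -3.93.

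Genes of differentiation and of the cornified envelope were lower as groups. Of 14 suprabasal and superficial markers, 13 fell and none rose (median -2.04), and all 8 tested envelope proteins and crosslinkers fell (median -2.58). Scel (sciellin, an envelope precursor, chr14:103513342-103612797, plus strand) was at 44.2 to 130.1 CPM in controls with a median of 96.5, and at 2.71, 2.49 and 2.12 CPM in the ESCC mice. It was 38.7-fold lower, with no overlap (-5.28 ± 0.35, adjusted p = 7.53e-10). Crct1, a cysteine-rich protein of the envelope gene cluster on chromosome 3, varied widely among controls, from 35.3 to 901 CPM (median 488), and was at 17.1, 7.48 and 20.1 CPM in ESCC. It lay below all controls nonetheless (-4.89 ± 0.69, adjusted p = 2.48e-05). Lor (loricrin), the transglutaminase Tgm3 and the plakins Ppl and Evpl fell by 4.52, 1.52, 2.67 and 1.96 on the log2 scale. Cnfn (cornifelin) and Sprr3, a small proline rich protein, fell by 3.16 and 3.62, but their control ranges of 186 to 2482 CPM and 44.2 to 2891 CPM overlapped the ESCC mice. Cells with more Krtdap than Krt5 made up 20.5% and 19.7% of control mice 2 and 3, against 38.9% to 40.2% of the other controls. Asprv1, the protease that processes filaggrin, and Calml3, a calmodulin-like protein of epithelium, fell by 4.83 and 3.73 with no overlap.

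The same lists were also lower within each kind of cell, with medians nearer to 0. There, within cells with more Krt5 than Krtdap, 15.8% of genes were called higher and 14.3% lower, and the suprabasal list gave 7 of 12 lower and 1 higher (median -0.82) and the envelope list 5 of 6 lower (median -0.89). Within cells with more Krtdap than Krt5, where 13.9% and 10.6% of genes were called, 9 of 14 suprabasal markers (median -1.41) and 6 of 8 envelope genes (median -1.56) were lower. Krt4 was lower in both kinds of cell, at -2.30 and -1.84. Other genes lost their calls in 1 kind. Cnfn stood at -0.81 (adjusted p = 0.281) in the first kind, and in the second Krt13 stood at -0.27 (adjusted p = 0.335), Tgm3 at -0.56 (adjusted p = 0.103) and Krt15 at -0.90 (adjusted p = 0.159). Krtdap was higher in the first kind at 2.02, but that gene chose the cells. Krt5 was higher in both, at 0.57 and 2.42, and the same holds for it.

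Most of the called transcription factors of the squamous lineage were lower. Of 22 tested, 13 were lower and 2 higher (median -0.73). Grhl3, a grainyhead factor needed for the skin barrier, was at 124 to 507 CPM in controls (median 385) and at 105, 63.6 and 86.4 CPM in ESCC, below all controls (-2.12 ± 0.29, adjusted p = 1.88e-05). It stood at -0.53 within cells with more Krt5 than Krtdap and did not pass (adjusted p = 0.178), and the list gave 8 of 19 lower and 2 higher there (median -0.43), against 8 of 18 lower and 1 higher within cells with more Krtdap than Krt5 (median -0.44). Klf5, which basal keratinocytes use, was lower with no overlap (-0.68, adjusted p = 0.00456). Sox2, an esophageal lineage factor that is often amplified in human ESCC, was lower with 8M inside the control range (-0.79, adjusted p = 0.0105). Its adjusted p was 0.0757 or 0.0742 without 17F or 17M, and 0.0868 against the old controls alone. Tfap2c was among the higher at 0.98. Trp63, the p63 master factor of squamous epithelium, had a log2 fold change of -0.11 ± 0.17 (adjusted p = 0.648). Of 11 tested genes of Notch signaling, which drives basal cells to differentiate, the ligand gene Jag2 (-0.67) and the feedback target Nrarp (-2.44) were lower, and the target Hes1 had a log2 fold change of -0.0041 (adjusted p = 0.99).

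Genes of adhesion to the basement membrane and of adhesion between cells gave different counts. In hemidesmosomes and basement membrane, which anchor basal cells, 5 of 14 genes rose and 1 fell (median 0.15, and -0.0046 with scaling by total UMIs). The integrins Itga3 (1.34), Itga6 (0.96) and Itgb4 (0.77), collagen VII (Col7a1, 0.80) and collagen XVII (Col17a1, 0.44) were higher, and dystonin (Dst) was lower at -0.65. Within cells with more Krt5 than Krtdap 2 of 13 rose and 2 fell (median -0.0071), and within cells with more Krtdap than Krt5 none of 7 was called. Col7a1 lost its call in 11 alternatives, among them DESeq2 (adjusted p = 0.067), total UMIs (0.0722), each control age alone (0.181 and 0.0714), cells with more Krt5 than Krtdap (0.31, adjusted p = 0.38) and without 17M (0.159). Dst lost its call in 6, among them without 17F or 17M (adjusted p = 0.179 and 0.134) and against the young controls alone (0.138). In desmosomes, which join cells to each other, 8 of 13 fell and 1 rose (median -0.53), among them the differentiation forms Dsc1 (-3.16) and Dsg1a (-2.89), while basal Dsg3 stood at 0.07 and did not pass. The desmosome median was 0.15 within cells with more Krt5 than Krtdap, with 1 of 10 lower and 1 higher, and -0.10 within cells with more Krtdap than Krt5, with 2 of 12 lower and 1 higher. Against the young controls alone 8 of 13 desmosome genes were lower, and against the old controls alone 3 of 13. Of 7 tight and gap junction genes 4 fell and none rose, among them the connexins Gjb6 (-2.09) and Gja1 (-1.14) and the scaffold Tjp1 (-1.04). Their median of -1.04 became -0.24 within cells with more Krt5 than Krtdap, with 1 of 5 lower and 1 higher, and 0.23 within cells with more Krtdap than Krt5, with 2 of 5 lower.

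**Figure D2:**
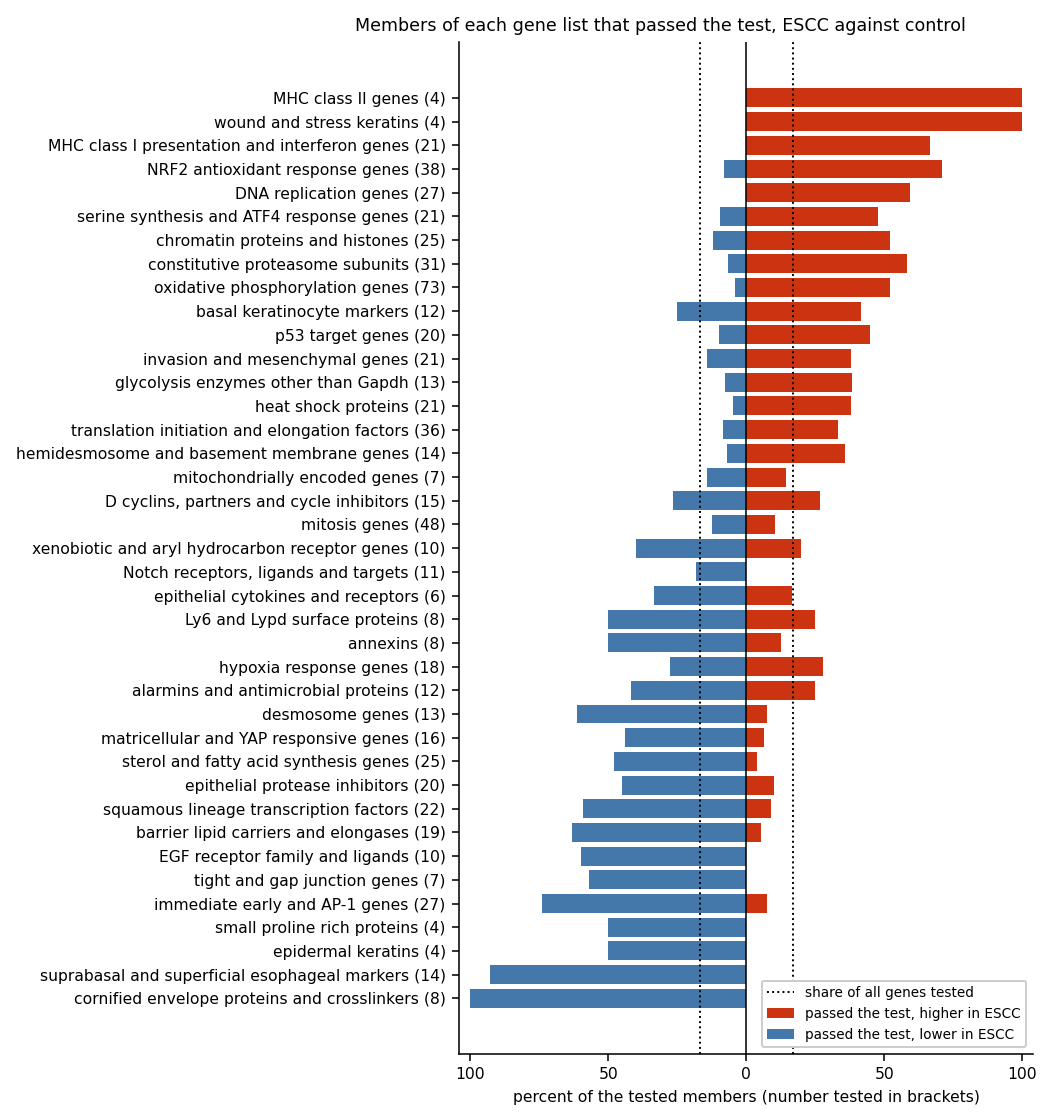
Percent of the tested members of each gene list called higher (to the right) and lower (to the left) in ESCC, with the percent of all genes tested as dotted lines (17.0% higher, 16.7% lower). All 8 tested envelope genes were lower, and 27 of 38 NRF2 genes were higher. Short lists at the top hold members that passed the filter on low counts through the ESCC mice.

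Antioxidant genes under NRF2 control were higher in ESCC, in both kinds of cell. Of 38 tested, 27 rose and 3 fell (median 1.02), with a median of 1.07 within cells with more Krt5 than Krtdap and 0.84 within cells with more Krtdap than Krt5. Slc7a11, the cystine importer that feeds glutathione synthesis, was at 0 to 28.9 CPM in controls with a median of 12.5, and at 324, 600.1 and 888 CPM in 8M, 17F and 17M. The groups did not overlap (5.23 ± 0.35, adjusted p = 9.94e-10). The ESCC mice alone were enough to bring Slc7a11 past the filter on low counts, and it is counted among the 27. Gclc and Gclm, the catalytic and modifier subunits of the enzyme that makes the first bond of glutathione, rose by 2.42 and 1.65. The sulfiredoxin Srxn1 (2.22), the peroxiredoxin Prdx1 (2.01), heme oxygenase Hmox1 (2.34), thioredoxin reductase Txnrd1 (1.02) and the quinone reductase Nqo1 (1.36) were higher as well. Ftl1, the ferritin light chain (5.48), and Gsta1, a glutathione transferase (4.75), were among the largest changes, but they have 9 and 3 annotated copies, between which reads can be split. Gstm1, the member with the most UMIs, differed by less than its spread (0.14, adjusted p = 0.664), Nfe2l2 itself did not pass (-0.32), and Prdx6, Me1 and Tkt were lower (-0.85, -0.67 and -0.46). The pentose phosphate enzymes G6pdx (0.72), Pgd (0.41) and Taldo1 (0.62) were higher.

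Promoter sequences show where the letters of the element lie in 3 of these genes. The element was searched as TGACNNNGC on both strands in windows of 250 bases before to 50 bases after each RefSeq start site. There 14% of 27025 genes held it, and 11 of the 32 list members with a window did. These were 7 of the 22 that rose, 1 of the 2 that fell and 3 of the 8 that were not called. The 3 windows below run 5′ to 3′ on the strand of the gene, in GRCm38.p6, with the match in capitals. They cover chr3:122245307-122245606 (Gclm), chr10:82858956-82859255 (Txnrd1) and chr4:116685349-116685648 (Prdx1), all on the plus strand, and their matches begin 134, 92 and 133 bases before the start site of that window. Txnrd1 also has windows at chr10:82833701-82834000 and chr10:82860091-82860390, which hold 0 matches. A match describes the letters only.
Gclm: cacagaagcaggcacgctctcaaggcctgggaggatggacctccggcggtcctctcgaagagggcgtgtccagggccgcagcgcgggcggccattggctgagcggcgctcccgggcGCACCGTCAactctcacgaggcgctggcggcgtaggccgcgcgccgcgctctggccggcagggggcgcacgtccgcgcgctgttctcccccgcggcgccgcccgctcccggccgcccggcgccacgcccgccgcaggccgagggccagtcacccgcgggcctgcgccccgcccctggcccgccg
Txnrd1: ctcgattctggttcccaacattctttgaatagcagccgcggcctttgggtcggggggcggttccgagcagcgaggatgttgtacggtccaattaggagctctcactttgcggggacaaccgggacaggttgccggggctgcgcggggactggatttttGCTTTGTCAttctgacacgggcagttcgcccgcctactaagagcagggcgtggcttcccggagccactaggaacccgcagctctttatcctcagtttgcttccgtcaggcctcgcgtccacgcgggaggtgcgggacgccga
Prdx1: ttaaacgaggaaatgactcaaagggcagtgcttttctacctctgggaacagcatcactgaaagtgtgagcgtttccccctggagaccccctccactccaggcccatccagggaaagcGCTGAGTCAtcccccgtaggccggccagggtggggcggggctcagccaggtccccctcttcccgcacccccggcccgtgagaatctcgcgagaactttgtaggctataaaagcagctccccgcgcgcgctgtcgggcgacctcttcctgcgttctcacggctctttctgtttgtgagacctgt

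Of 10 tested genes of xenobiotic metabolism 4 were lower and 2 higher. Cyp2f2, a cytochrome P450, was at 2132 to 3665 CPM in controls (median 2409.5) and at 706, 59.8 and 11.1 CPM in ESCC, below all controls but with a wide spread among the ESCC mice (-3.41 ± 0.76, adjusted p = 0.0021). Por, the reductase that supplies electrons to all microsomal P450 enzymes, was at 229.7 to 432 CPM (median 344) against 107, 82.9 and 70.5 CPM, with no overlap (-2.01 ± 0.21, adjusted p = 7.06e-07). Cyp4b1 and the aldehyde dehydrogenase Aldh3b2 were lower at -1.51 and -1.67. The higher ones, Nqo1 and Aldh3a1, are on the NRF2 list too, and Cyb5r3 (0.10), Tiparp (-0.23), Ahr (-0.031) and Arnt (0.058) did not pass.

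Immediate early genes were lower. Of 27 tested, 20 fell and 2 rose (median -1.05), with medians of -1.09 and -0.98 within the 2 kinds of cell. Fos, a subunit of AP-1 that cells induce within minutes of a stimulus, was at 4249 to 6771 CPM in controls with a median of 4962, and at 2217, 1399.7 and 1635 CPM in ESCC. Egr1, a zinc finger factor of the same class, was at 1247 to 2191 CPM (median 1728) against 592, 279.8 and 334 CPM. Neither gene overlapped between the groups (-1.58 ± 0.21, adjusted p = 1.31e-05, and -2.11 ± 0.25, adjusted p = 3.09e-06). Egr3 and Maff were lower by 2.53 and 2.13, while Ier3 (0.74) and Fosl2 (0.47) were higher. The letters of an AP-1 site, TGACTCA on either strand, were in 5.95% of all genes with a RefSeq window. They were in 1 of the 23 tested members that had one. Of 10 tested genes of the EGF receptor family 6 were lower and none was higher (median -0.97), with the feedback inhibitors Spry1 (-2.59) and Errfi1 (-1.80) and the ligand gene Hbegf (-1.45) in the lead. Egfr itself was just short of the threshold (-0.61, adjusted p = 0.0514, and 0.0129 with scaling by total UMIs). Within cells with more Krt5 than Krtdap, 6 of 6 tested members were lower, Egfr among them (-0.84, adjusted p = 0.0321). Within cells with more Krtdap than Krt5, 3 of 5 were lower.

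**Figure D3:**
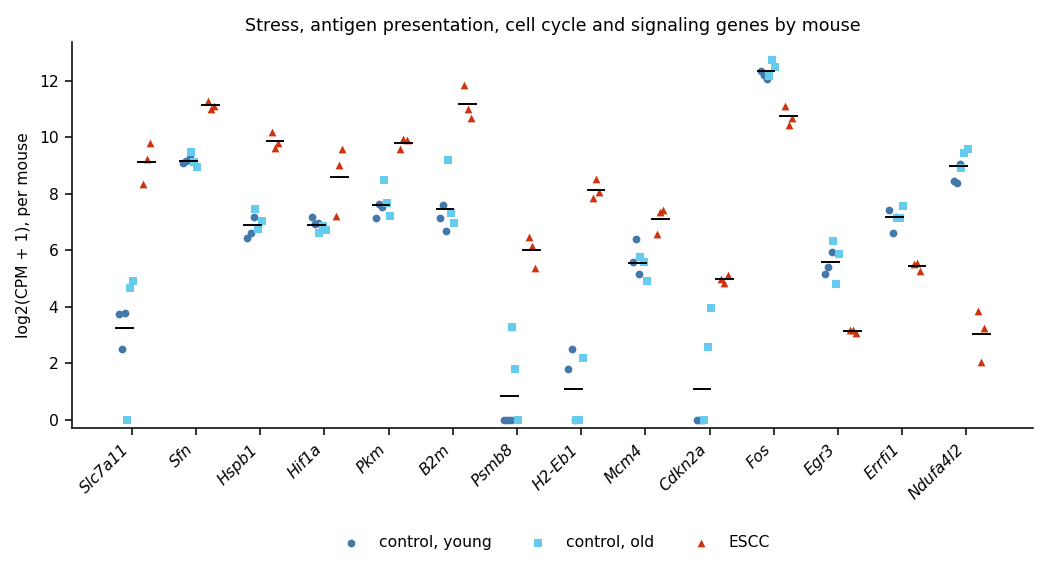
Levels of stress, antigen presentation, cell cycle and signaling genes as log2(CPM + 1), with 1 point per mouse (circles for young controls, squares for old controls, triangles for ESCC) and a bar at the mean of each group. Slc7a11 and B2m lie above all controls in each ESCC mouse, and Fos and Ndufa4l2 lie below them.

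The DNA replication and mitosis lists, both part of the cell cycle, gave different counts. Of 27 replication genes 16 rose and none fell (median 0.70), whereas of 48 mitosis genes 5 rose and 6 fell (median -0.098). The helicase subunit gene Mcm4 was at 28.9 to 83.7 CPM in controls (median 46.8) and at 94.7, 163 and 172 CPM in ESCC (1.61 ± 0.25, adjusted p = 7.18e-05), with no overlap. Mcm7, Rpa2 and Rrm1 were higher by 2.21, 2.13 and 0.70, of which Rrm1 stood at 0.22 (adjusted p = 0.4) within cells with more Krt5 than Krtdap. Among mitosis genes Birc5 (survivin) was higher at 1.31 and Prc1, which bundles spindle microtubules, was lower at -1.06, and the topoisomerase Top2a stood at 0.30 (adjusted p = 0.277). Within cells with more Krt5 than Krtdap, 5 of 23 replication genes were higher and 2 lower (median 0.19), and 18 of 43 mitosis genes were lower and 2 higher (median -0.58). Cycle regulators went both ways. Cdkn2a, a locus of cell cycle inhibitors, was at 0 to 14.5 CPM in controls (median 0) and 30.7, 28.0 and 33.9 CPM in ESCC (3.09, adjusted p = 0.000335). It passed the filter on low counts through the ESCC mice alone, so its call carries no weight. Cdk6 was higher at 1.57, while Cdkn2d and Cdkn2c were lower at -1.24 and -0.90. Ccnd1 (0.48, adjusted p = 0.075) did not pass over all cells. It was called higher within cells with more Krtdap than Krt5 (1.25, adjusted p = 0.00114) and against the young controls alone (0.81, adjusted p = 0.00737). Of 20 targets of p53, 9 were higher and 2 lower (median 0.41), against 9 of 17 higher and 1 lower within cells with more Krt5 than Krtdap (median 0.69) and 2 of 12 higher and 1 lower within cells with more Krtdap than Krt5 (median 0.080). Among them Sfn (14-3-3 sigma), at 492 to 707 CPM in controls and 2514, 2079 and 2223 CPM in ESCC, rose by 1.97, and Trp53inp1 and Pmaip1 by 2.10 and 2.25, whereas Cdkn1a, the p21 inhibitor, stood at -0.09 (adjusted p = 0.764) over all cells and at 1.22 (adjusted p = 4.11e-05) within cells with more Krt5 than Krtdap.

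Genes of MHC class I presentation and of the interferon response were higher. Of 42 such genes in the files 21 had enough counts to be tested, of which 14 rose and none fell (median 1.37). In cells with more Krt5 than Krtdap 10 of 15 rose and 2 fell, and within cells with more Krtdap than Krt5 6 of 10 rose and none fell. B2m, the light chain of class I molecules, was at 102 to 583 CPM in controls with a median of 149, and at 3674, 2080.2 and 1665 CPM in 8M, 17F and 17M. The groups did not overlap (3.67 ± 0.37, adjusted p = 4.03e-07). The heavy chain genes H2-K1 (3.19) and H2-D1 (1.33), the peptide transporter Tap1 (2.83) and the immunoproteasome subunit Psmb8 (5.61) were higher, while Irf1 stood at -0.35 and did not pass. H2-Q7 had 0 UMIs in all controls and was at 167, 117 and 68.4 CPM in ESCC, at least 62.9-fold higher against a floor of 3 UMIs over the control group. It passed the filter on low counts through the ESCC mice alone and is counted among the 14, so its part in that count carries no weight. Class I genes of this family are alike in sequence, with 47 annotated copies for H2-D1, so how reads were shared among them is uncertain. Without the 14 control and 173 ESCC cells that held any immune marker UMI, the median of the list was 1.34 against 1.37 with them.

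MHC class II genes were higher, but most of their UMIs lay in few cells. With 3 to 5 UMIs over all controls, H2-Eb1, H2-Aa and Cd74 passed the filter on low counts through the ESCC mice alone. H2-Eb1, a beta chain, had 3 UMIs over all controls and was at 230.0, 368 and 266 CPM in ESCC, a ratio of 169 with a counting interval of 57.7 to 821. H2-Aa and Cd74, the alpha chain and the invariant chain, were higher at 6.05 and 6.03, and H2-Ab1, at 10.8 to 41.9 CPM in controls and 124, 251 and 165 CPM in ESCC, at 2.46. Counted by cell, these transcripts gave 69 UMIs in 69 control cells and 3924 UMIs in 426 ESCC cells, and the 20 richest cells of a mouse held 79.6%, 92.2% and 84.1% of them in 8M, 17F and 17M. Cells without an immune marker UMI held 13.1% of the ESCC class II UMIs, non-epithelial cells 48.5% and cells with more Krt5 than Krtdap 51.2%. Of the cells with more Krt5 than Krtdap, 27.9% in ESCC and 5.97% in controls held a class II UMI, at unlike depth. Within them 3 of 3 tested genes were higher (median 6.41), with 55 class II UMIs over the control cells. Without non-epithelial cells and cells outside limits on genes and UMIs, 4 of 4 were higher (median 5.01). When cells with an immune marker UMI were left out, 2 class II genes passed the filter, H2-Eb1 at 5.11 and H2-Ab1 at 0.41, of which the first was called higher.

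The promoter of H2-Eb1 (chr17:34305617-34305916) holds the Y box of class II genes, searched as CTGATTGG on both strands, and that of B2m (chr2:122147437-122147736) holds the interferon-stimulated element, searched on both strands as GAAA, any 2 bases and GAAA again. They are shown because both genes rose in all ESCC mice. Both lie on the plus strand of GRCm38.p6, with the match in capitals, beginning 62 and 139 bases before the start site. The Y box letters were in 4.70% of all genes with a RefSeq window and in both class II members that had one. The interferon-stimulated letters were in 3.99% of genes. On the class I list they were in 4 of the 13 members with a window that rose and in 2 of the 3 that were not called. These matches describe letters and not binding.
H2-Eb1: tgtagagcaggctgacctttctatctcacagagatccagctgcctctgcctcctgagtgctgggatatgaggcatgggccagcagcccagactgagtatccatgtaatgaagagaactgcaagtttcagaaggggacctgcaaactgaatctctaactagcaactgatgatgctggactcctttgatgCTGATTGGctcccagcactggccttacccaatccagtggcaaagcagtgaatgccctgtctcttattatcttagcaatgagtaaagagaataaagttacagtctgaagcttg
B2m: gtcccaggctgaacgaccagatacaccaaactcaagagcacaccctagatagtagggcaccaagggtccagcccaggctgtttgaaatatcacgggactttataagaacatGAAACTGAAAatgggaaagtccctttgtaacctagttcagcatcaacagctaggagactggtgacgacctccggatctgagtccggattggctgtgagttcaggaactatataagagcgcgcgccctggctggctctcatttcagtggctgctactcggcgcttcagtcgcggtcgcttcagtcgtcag

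Genes of the hypoxia response did not move together. Of 18 tested, 5 were higher and 5 lower (median -0.45), with medians of 0.32 within cells with more Krt5 than Krtdap and -0.57 within cells with more Krtdap than Krt5. Ndufa4l2, a mitochondrial protein that hypoxia induces, was at 330.2 to 763 CPM in controls with a median of 511, and at 13.5, 3.12 and 8.48 CPM in the ESCC mice. It was 65.1-fold lower, the largest fall among the genes named by fold (-6.02 ± 0.38, adjusted p = 4.61e-10). Egln3, a prolyl hydroxylase that marks HIF for decay, fell by 4.02, from 79.5 to 222 CPM in controls to 9.92, 7.48 and 12.2 CPM. Hif1a itself was higher at 148, 519.7 and 766 CPM against 97.2 to 145 CPM (2.00, adjusted p = 9.93e-05), with 8M just above the controls, and Vegfa (1.18) and the glucose transporter Slc2a1 (1.10, but 0.15 with adjusted p = 0.812 within cells with more Krtdap than Krt5) were higher. Of 13 glycolysis enzymes other than Gapdh, 5 were higher and 1, Tpi1 (-1.21), was lower, with Pkm, the last enzyme of the pathway, at 2.20. Of 11 tested within cells with more Krtdap than Krt5, 1 was higher and 2 were lower. Pdk4, a kinase that inhibits pyruvate dehydrogenase, fell by 3.47. In oxidative phosphorylation 38 of 73 nuclear genes were higher and 3 lower (median 0.48), and the largest of these differences were in Atp5g1 and Atp5g2 (4.44 and 4.46), with 7 and 3 annotated copies.

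Many lipid genes of the barrier and of sterol synthesis were lower over all cells. Of 19 barrier lipid genes 12 fell and 1 rose (median -0.76). Sptlc3, a subunit of the enzyme that starts ceramide synthesis, was at 8.83 to 86.1 CPM in controls (median 57.4) and at 5.41, 0.623 and 2.12 CPM in ESCC (-4.53 ± 0.50, adjusted p = 1.41e-06). The lipoxygenase genes Aloxe3 (-4.27) and Alox12b (-2.95) were lower, and the exception was Fabp5, a fatty acid carrier, at 1497 to 2532 CPM in controls and 4866, 5294 and 6192 CPM in ESCC (1.40, adjusted p = 8.31e-06). Of 25 sterol and fatty acid synthesis genes 12 fell and 1 rose (median -0.62). Within cells with more Krt5 than Krtdap, none of 9 barrier lipid genes and none of 12 sterol genes was called lower, 2 and 4 were called higher, and the medians were 0.27 and 0.52. In cells with more Krtdap than Krt5, 5 of 18 and 2 of 24 were lower (medians -0.33 and -0.19). The counts also differed with the age of the controls. Against the young controls alone 12 of 19 barrier lipid genes and 16 of 27 sterol genes were lower (medians -0.81 and -0.80), and against the old controls alone 6 of 18 and 5 of 26 (medians -0.66 and -0.47). Of 21 genes of serine synthesis and the ATF4 response 10 rose and 2 fell (median 0.60), among them the amino acid carriers Slc1a4 (1.84) and Slc3a2 (1.80), of which the second is the partner of Slc7a11.

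Secreted and surface proteins of the epithelium changed in both directions. Of 12 alarmins and antimicrobial proteins 3 rose and 5 fell, with S100a11 at 150.0 to 318 CPM in controls and 1187, 1189 and 1183 CPM in ESCC (2.58, 3 annotated copies), S100a14 lower at -1.10 (-0.47 with adjusted p = 0.0517 within cells with more Krt5 than Krtdap), and the defensin Defb4 (-4.31) and the alarmin cytokine Il33 (-2.71) lower with overlap between groups. Il1f9, an IL-36 cytokine of keratinocytes, was at 8.83 to 60.3 CPM against 159, 150.2 and 159.5 CPM (2.44, adjusted p = 9.59e-07). Among 20 protease inhibitors 2 rose and 9 fell (median -0.64), and the one with the largest rise was the cystatin Csta1 at 3.63. Within cells with more Krt5 than Krtdap 2 of 14 rose and 4 fell (median 0.15), and within cells with more Krtdap than Krt5 4 of 17 rose and 1 fell (median 0.024). Of 21 genes of invasion and mesenchymal character 8 rose and 3 fell (median 0.25), against 4 of 19 and 2 within cells with more Krt5 than Krtdap and 2 of 10 and 3 within cells with more Krtdap than Krt5. The actin crosslinker Actn1 (2.39), moesin (Msn, 1.66), fascin (Fscn1, 1.07) and P-cadherin (Cdh3, 0.80) were higher. Epcam, an adhesion molecule of epithelium, was at 195 to 301 CPM in controls and at 83.9, 49.9 and 41.9 CPM in ESCC (-2.11, adjusted p = 6.27e-07). Cdh1 (E-cadherin) stood at 0.14 and Vim (vimentin) at 0.98, and neither passed. Of 16 matricellular and YAP responsive genes 7 fell and 1 rose (median -0.55), with Ccn2 (-3.93) overlapping between groups and caveolin Cav1 (-1.51) not. The median of these genes was -0.88 within cells with more Krt5 than Krtdap and -0.095 within cells with more Krtdap than Krt5. Without non-epithelial cells and cells outside limits on genes and UMIs, 6 of 15 matricellular and YAP responsive genes were lower and 1 higher (median -0.66). Of 4 tested fibroblast markers 3 were lower over all cells as well, and their part in these values was not tested further.

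**Figure D4:**
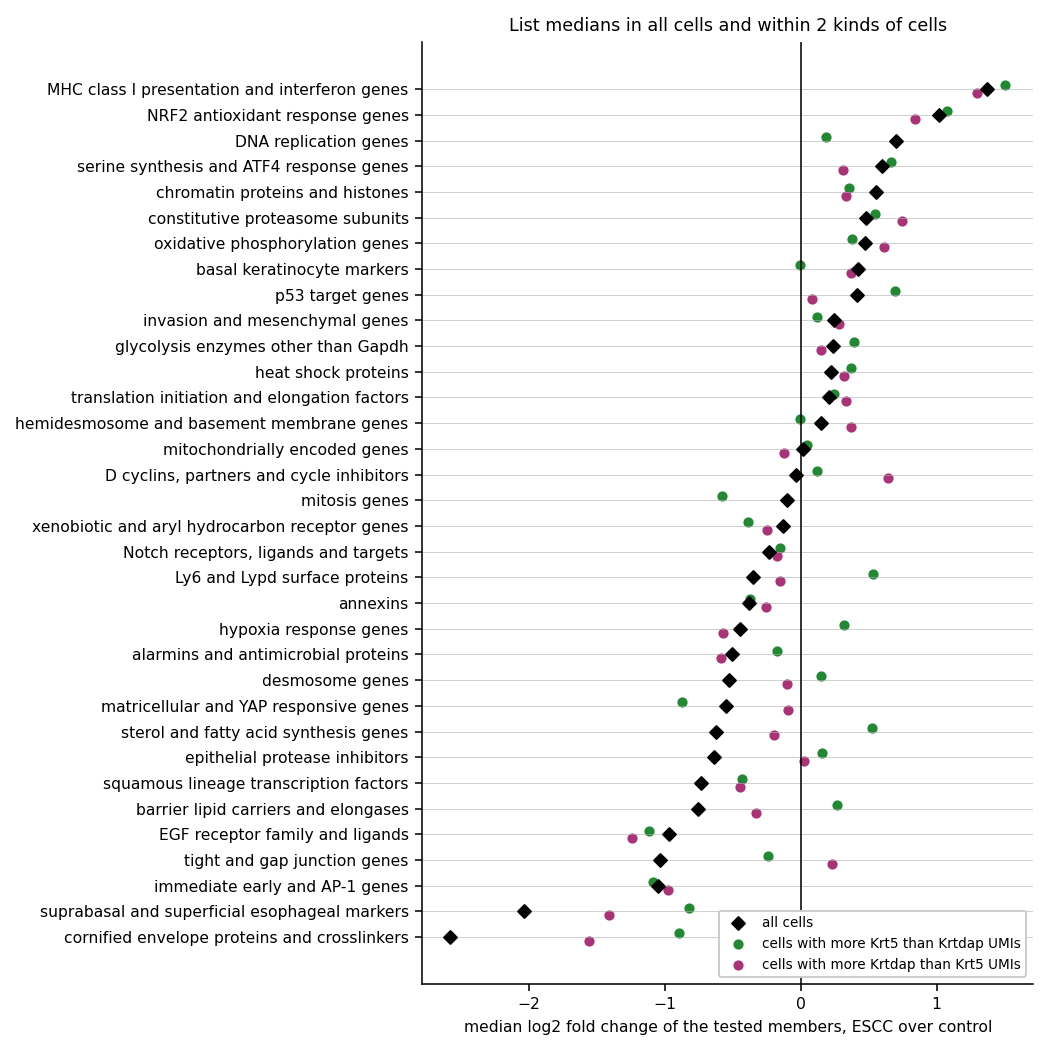
Median log2 fold change (ESCC over control) of each gene list over all cells, within cells with more Krt5 than Krtdap and within cells with more Krtdap than Krt5. The NRF2 list lies at 1.02, 1.07 and 0.84 and the immediate early list at -1.05, -1.09 and -0.98, while the sterol list moves from -0.62 to 0.52 in the first kind of cell.

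By fold, the genes that led the rise apart from those above were Serpine2 (a protease inhibitor of the extracellular matrix, 5.84), the histone variant gene H2afz (5.00) and Gstp2 (4.95, 2 copies), and also Gm10051 (at least 61.6-fold against controls with 0 UMIs, 4 copies that include Rpl28), LOC105244208 (1 control UMI, ratio 700.0, interval 125 to 27664) and LOC102638448 (6.25), for which no function is given here. Those that led the fall were Gm12669 (-5.67, 1 annotated copy, Glrx3), the membrane carrier Slc46a2 (-5.04), Mir6236 (-4.16), Paqr5 (-3.92), Gsdma (a gasdermin, -3.81) and the imprinted noncoding RNA H19 (-3.71). In these 2 sets all ESCC mice lay outside the control range by the rule that named them, and that rule was passed by 372 genes in each direction. Of the 372 that rose, 56 had 1 to 4 annotated copies, against 6 of the 372 that fell.

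Ribosomal protein genes, Gapdh and genes with 5 or more annotated copies were left out of the genes named by fold and are described here, because reads can be split among copies. The lists above hold 14 tested genes of this kind, of which 11 were higher and none lower, Ftl1, Atp5g1 and H2-D1 among them. Ribosomal protein genes took 5.91% to 9.17% of the UMIs of a control mouse (mean 7.07% ± 1.16 SD, n = 6) and 16.3% to 19.6% of those of an ESCC mouse (17.8% ± 1.66, n = 3). The two-sided exact permutation test gave p = 0.0238, the smallest that 3 against 6 mice allow, and 0.0317 after adjustment over the 4 shares tested. Of 81 tested ribosomal protein genes 67 were higher and 4 lower (median log2 fold change 3.2). Gapdh had 5 UMIs over all controls, with 0 to 4.93 CPM, and 8784 over the ESCC mice, with 1787, 1867 and 2018 CPM, and it has 92 annotated copies. Its share was 0.000231% ± 0.000193 in controls and 0.167% ± 0.0134 in ESCC, and that of the many-copy genes was 0.805% ± 0.0611 and 1.36% ± 0.122, with the same p by the exact permutation test. Mitochondrially encoded genes, a sign of RNA quality, took 3.56% to 7.59% in controls and 3.88% to 4.18% in ESCC (exact permutation p = 0.286).

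Rises were more frequent among genes with copies. Among the other genes tested, 14.8% of the 6184 with no annotated copy were higher and 17.3% lower, against 42.8% and 11.7% of the 222 with 1 to 4 copies. Of the 1123 genes higher in ESCC, 18 had 3 UMIs or fewer over all controls and 6 had none. Actg1, a cytoplasmic actin that most cells express, had 0 UMIs in all controls and 70.3, 44.9 and 44.5 CPM in ESCC, at least 29.4-fold higher, and its near relative Actb stood at 4010.3 to 5413 CPM in controls and 4633, 4254 and 4637 CPM in ESCC (-0.03, adjusted p = 0.906). Other abundant housekeeping genes with low control counts were Ptma at 37.0 to 74.4 CPM against 1094, 820.1 and 522 CPM, Eef1g at 41.9 to 88.3 against 872, 820.1 and 744 CPM, and the proteasome subunit gene Psma3 at 19.7 to 88.3 against 460.0, 475 and 523 CPM, whereas Psmb7 was lower at -2.33. Eef1a1 was lower at -0.54, a call lost in 5 alternatives, among them without 17F or 17M (adjusted p = 0.096 and 0.0785) and against the old controls alone (0.0788). Of 31 constitutive proteasome genes 18 rose and 2 fell, of 36 translation factors 12 rose and 3 fell, and of 25 chromatin proteins and histones 13 rose and 3 fell. The part of annotated copies in these differences was not tested. Whether reads that match several genes were counted alike in the control and ESCC libraries is not given in the sources used here, so the folds of Gapdh, Actg1 and other genes with copies may hold a difference in counting as well as one in RNA.

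**Figure D5:**
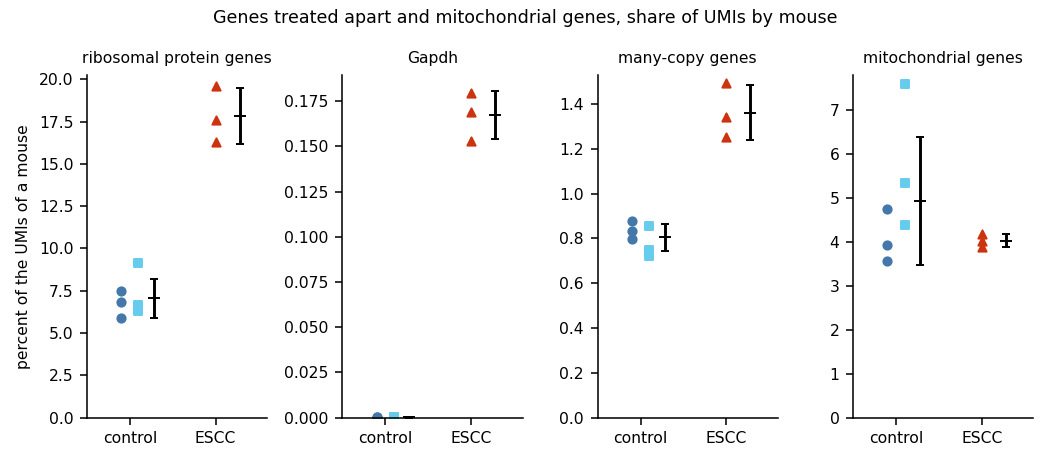
Percent of the UMIs of each mouse that fell on ribosomal protein genes, Gapdh, many-copy genes and mitochondrially encoded genes, with 1 point per mouse (circles for young controls, squares for old controls, triangles for ESCC) and bars for the mean and SD of each group. Ribosomal protein genes lie at 5.91% to 9.17% in controls and 16.3% to 19.6% in ESCC, and the mitochondrial shares overlap.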

How the data were processed

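The deposited files hold whole UMI counts per gene and cell, without normalization. According to the labels' processing notes and the study's methods, the authors extracted barcodes with UMI-tools 1.0.0, used STAR 2.7.3 and the GRCm38 sequence of GENCODE M23 for alignment and featureCounts for assignment to genes, counted UMIs, filtered cells and drew 1500 cells per condition. All deposited cells were used here, and both libraries of a mouse were summed. The files list 17541 genes, of which 2352 had no UMI in the 9 mice.

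The quasi-likelihood test of edgeR 4.0.16 (R 4.3.3) compared 3 ESCC with 6 control mice without a covariate, after filterByExpr and TMM scaling, at a Benjamini-Hochberg adjusted p of 0.05. Levels are CPM on TMM-scaled library sizes. For shares of UMIs, the exact permutation test ran over all 84 splits of the mice and was two-sided. Mitochondrial genes were taken by their NCBI names, since none begins with mt-. DESeq2 1.42.0, median-of-ratios factors, total UMIs, no filter, the other cell selections, single libraries, thinned counts and each mouse left out were alternatives. On simulated counts for this comparison, edgeR recovered 189 of 200 genes changed by a log2 fold change of 2 or -2 among 6260 tested, with 14 unchanged genes called. These changes were balanced in direction, few, and larger than many called here. The simulation therefore does not show how smaller changes, or a shift like that of the ribosomal protein genes, are handled.

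The genes named were 13 fixed genes, the 15 with the largest fold in each direction (called also against each control age alone, without overlap of the groups, with a mean log2 CPM of 5 or more, not among the genes kept apart and not sex-linked) and, per list, up to 3 called members with the largest change plus the member with the highest average level. Other list members were named after their values were seen. Members, the 48 lists and the rules were chosen with earlier results of these data known. A copy was another gene that shares at least 10% of the 31-base sequences in the last 300 bases of a transcript (GENCODE M21, 17350 genes matched). A floor of 3 UMIs over the group set bounds against 0, and floors and 95% intervals cover counting error alone. Scrublet, run per condition, marked 8 control cells and 1 ESCC cell, too few for the caller to be relied on. Names matched RefSeq for 17305 genes. EoE libraries, images and population labels were not used here, and some named genes are not reported here.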

Additional observations from a re-analysis of the deposited data

Results flagged for a closer look

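Of 140 gene levels and shares of UMIs checked over the 6 control mice, 12 had a lowest or highest mouse whose gap to the next was above Dixon's 95% limit for 6 values. Chance flags about 1 in 20 such groups. The 3 ESCC mice are too few for this check. Control mouse 3, with the fewest UMIs (112412), was the highest for Pkm (362 CPM against a control median of 192), B2m (583 against 149), Psma7 (459 against 353), Tuba1b (88.3 against 33.5) and Npm1 (1378 against 722), and the lowest for Krt32 (221 against 433). Control mouse 2 was the highest for Cav1 (181 against 114) and Actn1 (69.8 against 38.7) and the lowest for Ovol1 (18.6 against 54.8). Control mouse 1 was the highest for Krt10 (371 against 68.0) and Il1rn (248 against 138), and control mouse 4 for ND4 (16571 against 9565).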

How the results depend on the processing

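The counts of 1123 genes higher and 1106 lower became 1706 higher with no filter on low counts, 731 higher and 660 lower within cells with more Krt5 than Krtdap, 471 higher and 361 lower within cells with more Krtdap than Krt5, 679 higher with library 1 alone, 705 higher and 715 lower with library 2 alone, and 363 higher and 341 lower after thinning each mouse to 112412 UMIs. Leaving out each mouse in turn gave 825 to 1192 genes higher and 707 to 1256 lower, with 707 lower without 17F and 753 without 17M. None of the called genes changed sign with DESeq2 (965 higher, 1039 lower), with another normalization or without any 1 mouse, but fewer kept their call. Among called genes that could be tested, 88.6% kept it with DESeq2, 84.3% or more without any 1 control mouse, 68.7% without 17F and 71.1% without 17M. It was kept by 67.0% against the young and 61.6% against the old controls alone, and by 56.2% after thinning. Within cells with more Krt5 than Krtdap 67.5% kept it, and within cells with more Krtdap than Krt5 52.6%. Of the called genes that could be tested, 39 of 1690 changed sign within the first kind (5 of them called with the other sign), 30 of 1395 within the second and 4 of 1203 after thinning. These 2 alternatives were chosen after seeing the data: counting shared barcodes once gave 1107 higher and 1117 lower, and leaving out cells with an immune marker UMI gave 1096 and 1072.

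Without 1 mouse the ESCC minus control difference in share was 9.87 to 11.5 percentage points for ribosomal protein genes, 0.161 to 0.174 for Gapdh, 0.492 to 0.613 for many-copy genes and -1.17 to -0.363 for mitochondrial genes. With 2 ESCC mice the exact permutation test cannot give an adjusted p under 0.0952 for the first 3 shares, so those values do not bear on their stability.

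Of the log2 fold changes of named genes over all alternatives, 3958 kept direction and side of the threshold, 126 lost and 32 gained a call and 33 changed sign. The values of changed sign were, within cells with more Krt5 than Krtdap, Krtdap 2.02 (that gene chose the cells), Cdkn1a 1.22, Top2a -0.19, Dsc2 0.28, Dsp 0.16, Hmgcs1 0.19 and Hes1 0.0025. They were, within cells with more Krtdap than Krt5, Cdkn1a 0.086, Trp63 0.0098, Krt23 0.25, Smc4 0.18 and Ly6d 0.015. With library 1 alone Cdkn1a was 0.042 and Hes1 0.086, and with library 2 alone Trp63 was 0.020. With total UMIs Gstm1 was -0.024 and Cox8a -0.013, against the old controls Gstm1 was -0.035 and Hes1 0.15, and after thinning Ldha was 0.065. Leaving out each mouse in turn gave values from -0.35 to 0.10 for Cdkn1a (above 0 without 17F), -0.047 to 0.49 for Top2a and -0.20 to 0.30 for Gstm1 (both below 0 without 8M), -1.24 to 0.31 for Il1r2 (above 0 without 17F, at 0.15, and without 17M) and -0.13 to 0.048 for Hes1 (above 0 without 8M or control mouse 2, 3 or 6). Hes1 was also 0.0076 with no filter, 0.0084 without the genes kept apart, 0.0034 with shared barcodes counted once and 0.035 without cells with an immune marker UMI. The cause of these changes was not tested. No paired analysis was possible because the groups share no replicate numbers. The shallow controls limit the detection of genes with few UMIs, and mouse 3 has the least, where 1 UMI equals 8.83 CPM.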
